A study of Apis mellifera ligustica with 11 samples.

Results

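Aminoacyl-tRNA ligases and translation factors were followed in honeybee brains (Apis mellifera ligustica, the Italian subspecies) before and after exposure to fluvalinate. The group was chosen by wording alone: every gene whose description names a tRNA ligase or synthetase, a translation initiation factor, an elongation factor 1, 2 or Tu, or a peptide chain release factor. It held 95 of the 9974 genes in the deposited table, namely 22 ligases described as cytoplasmic or given no compartment (1 row of a ligase-complex protein among them), 15 mitochondrial ligases, 45 initiation factor rows, 9 elongation factor rows and 4 release factors. The wording also took in genes with other roles. Among them were 2 kinases that phosphorylate eIF2-alpha, 3 proteins that bind eIF4E, and LOC102654012, described as a transcription elongation factor and not a translation factor.

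Brain mRNA was sequenced from 3 libraries taken 1 day before exposure and from 2 libraries of day 10, 3 of day 20 and 3 of day 30 after it. Fluvalinate is a pyrethroid used inside hives against mites, and the labels state a normal dosage for bees, repeated through mite treatment. The labels speak of control and test sets of like colonies, but the control-titled libraries used here all date from before exposure and no unexposed library of a later day was used here, which leaves exposure and elapsed time inseparable: they cannot be told apart. The sources used here do not give bee age, caste or the number of brains per library. Nothing says that the libraries came from separate colonies, so a p-value reflects the spread between the libraries alone, which may be technical.

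Translation needs a charged tRNA for each amino acid, which a ligase (aminoacyl-tRNA synthetase) makes by joining the amino acid to its tRNA. Initiation factors then bring the first tRNA (eIF2, recharged with GTP by eIF2B), hold the small ribosomal subunit (eIF3) and bind the cap of the mRNA (eIF4E with eIF4G), elongation factors deliver further tRNAs and move the ribosome, and release factors free the finished protein. Mitochondria use a set of ligases and factors of their own, encoded in the nucleus. Neurons depend on regulated translation, and phosphorylation of eIF2-alpha and the binding of eIF4E by 4E-BP are known control points for it.

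Values are FPKM, a read measure scaled to transcript length and to library size, so levels of different genes are compared per length. Summed FPKM per library lay between 264416 and 468358, and the group made up between 0.851% (day 10 replicate 2) and 1.51% of the sum, while its own summed FPKM varied only between 3816 and 4429. The labels state that the royal jelly glands were taken off, yet major royal jelly protein transcripts (Mrjp1 to Mrjp7) made up 27.0% and 23.9% of summed FPKM at day 10, 13.2% to 23.9% at day 20, 1.51% to 10.4% at day 30 and 1.76% to 4.42% before exposure. All 10 neuron markers were detected in every library, and their summed FPKM was 631 to 690 before exposure, 338 and 429 at day 10, 537 to 582 at day 20 and 545 to 686 at day 30. Photoreceptor transcripts summed to 405 to 749 FPKM before exposure, 693 and 793 at day 10, 755 to 1986 at day 20 and 1284 to 1301 at day 30, and haemocyte transcripts lay between 68.04 and 146 FPKM. Fat body transcripts summed to 60.1 to 71.5 FPKM before exposure, 91.7 and 98.3 at day 10, 52.1 to 62.2 at day 20 and 28.7 to 51.3 at day 30. Glia markers (2 genes) summed to 1575 to 2974 FPKM and muscle transcripts to 306 to 633 FPKM. The part of these transcripts in the results was not tested, and in bulk tissue fewer cells of a type and less RNA per cell cannot be told apart.

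Elongation factors were the most abundant of the group, with a median of 93.8 FPKM over their 9 rows against 13.8 FPKM over all members and 7.48 FPKM over all genes of the table. LOC409167, elongation factor 2, which moves the ribosome along the mRNA, averaged 784 FPKM over the 11 libraries and ranged from 676 to 852 FPKM. EF1a-F2, an elongation factor 1-alpha that carries charged tRNAs to the ribosome, averaged 638 FPKM, and Ef-1a-f1, a second gene of that kind, averaged 269 FPKM. The 2 are copies of one factor, and how reads of similar sequence were divided between them is uncertain. LOC408328, the mitochondrial factor Tu that does the same work in mitochondria, averaged 102 FPKM. The exchange-complex subunits LOC551211 (elongation factor 1-gamma) and LOC552649 (elongation factor 1-beta') stood side by side at 93.8 and 93.0 FPKM, and their ranges of 81.3 to 105 and 73.4 to 107 FPKM overlapped. The lowest row, at 7.24 FPKM, was LOC102654012, the transcription elongation factor.

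**Figure D1:**
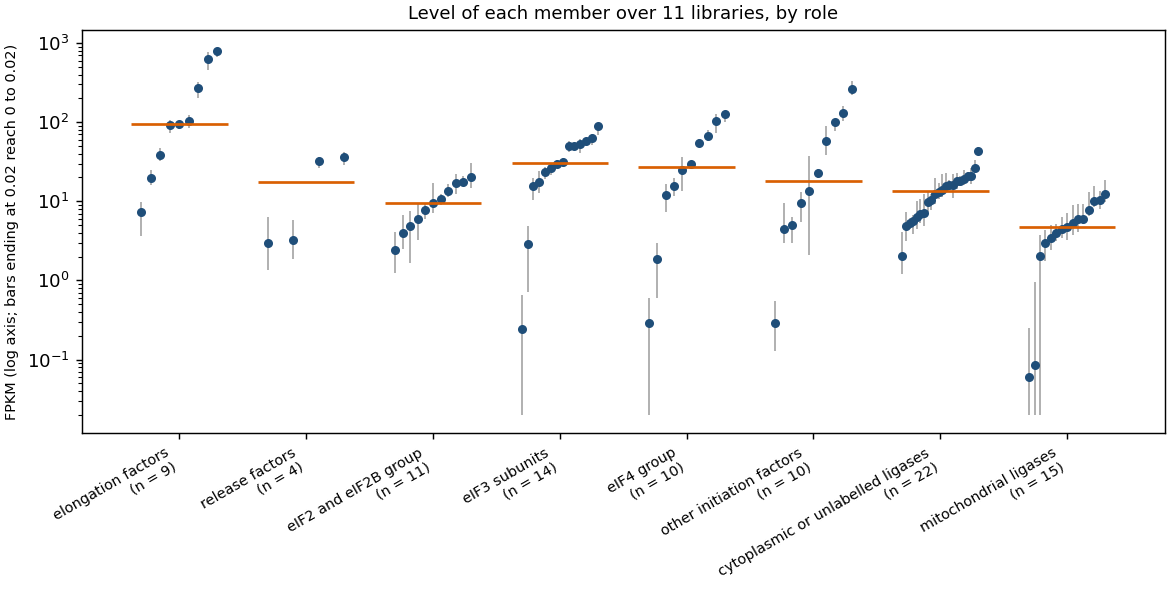
FPKM (log axis) of each of the 95 members by role, where a point is the mean over 11 libraries, a grey bar runs from the lowest to the highest library and an orange line is the median of the role. Elongation factors have the highest median, 93.8 FPKM, and mitochondrial ligases the lowest, 4.77 FPKM.

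Among initiation factors, LOC102654691 (eIF1, which helps select the start codon) averaged 261 FPKM, LOC552572 (eIF5A, which helps ribosomes through difficult peptide bonds) 130 FPKM, and LOC408979 (eIF5, which triggers GTP hydrolysis by eIF2) 99.9 FPKM. Among cap-binding and scaffold factors the order was LOC411154 (eIF4G2) at 128 FPKM, Eif4g at 103 FPKM, LOC409396 (Mextli, an eIF4E-binding protein described in Drosophila) at 67.2 FPKM and LOC725039 (4E-BP1, the inhibitor of eIF4E) at 54.0 FPKM. LOC551901, described as eIF4E-1A, averaged 25.2 FPKM, so the transcript of the inhibitor was the higher of the pair in every library. The eIF2 and eIF2B group was lower, with a median of 9.58 FPKM. Drawn by wording, this group also holds the rows named eIF2A and eIF2D and the 2 eIF2-alpha kinases. LOC100578660 (eIF2-beta) averaged 20.4 FPKM, LOC552764 (eIF2A) 17.8 FPKM, the eIF2-alpha kinase LOC727396 16.8 FPKM and LOC726500 (eIF2-alpha) 13.6 FPKM, and the 5 subunits of the exchange factor eIF2B ran from 2.45 FPKM (LOC102655618, epsilon, the catalytic subunit) to 10.8 FPKM (LOC410355, beta).

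Within eIF3, the scaffold on the small subunit, the levels of the subunits were far from equal. LOC409796 (subunit J) averaged 88.2 FPKM, LOC408386 (subunit G) 63.0 FPKM and LOC552056 (subunit L) 58.3 FPKM, and the other tested subunits apart from 1 lay at or above 15.7 FPKM (LOC551242, subunit E). The exception was LOC414004, the large scaffold subunit A, which averaged 2.88 FPKM and ran from 0.72 FPKM in day 30 replicate 1 to 4.94 FPKM in day 20 replicate 2. It was under every other tested eIF3 subunit in every library. LOC727164, a second subunit F-like row, was at 0.241 FPKM and was listed at 0 in 3 libraries.

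Release factors of the cytoplasm outranked those of bacterial or mitochondrial type. LOC725555 (eRF1, which reads stop codons) averaged 36.1 FPKM and LOC413943 (eRF3, its GTP-binding partner) 32.1 FPKM. LOC724133, named peptide chain release factor 1, and LOC724155, named C12orf65 and mitochondrial, averaged 3.25 and 2.98 FPKM.

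Cytoplasmic or unlabelled ligases had a median of 13.4 FPKM and mitochondrial ligases one of 4.77 FPKM. The threonine ligase LOC412200 led at 43.0 FPKM, followed by the asparagine ligase LOC551088 at 26.1 FPKM and the serine ligase LOC413011 at 21.0 FPKM. The highest mitochondrial ligases were those for tyrosine (LOC552025, 12.2 FPKM), isoleucine (LOC726483, 10.3 FPKM) and leucine (LOC552532, 10.1 FPKM). Compared amino acid by amino acid, the ligase labelled cytoplasmic, or with no compartment named, was above its mitochondrial counterpart in 11 of 11 libraries for 15 of the 17 pairs, among which 3 rows enter more than 1 pair. Among those 15, and leaving out alanine and arginine, whose mitochondrial ligases were barely seen, the ratio of means ran from 1.28 for leucine to 7.02 for serine.

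Isoleucine went the other way. The cytoplasmic ligase LOC551629 lay between 3.82 and 6.77 FPKM and the mitochondrial LOC726483 between 8.09 and 13.4 FPKM, so the 2 did not overlap and the mitochondrial form was higher in every library. LOC102655284, a second serine ligase with no compartment in its name, lay under the mitochondrial serine ligase LOC724712 in 10 of 11 libraries, at means of 2.04 and 2.99 FPKM, and both read 2.54 FPKM in before-exposure replicate 1. Of the mitochondrial ligases for alanine and arginine, LOC551243 was listed at 0 in 10 of 11 libraries and at 0.95 FPKM in day 30 replicate 3, and LOC552307 averaged 0.06 FPKM. For glutamine, glycine, histidine, lysine and threonine no mitochondrial ligase was analysed here.

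**Figure D2:**
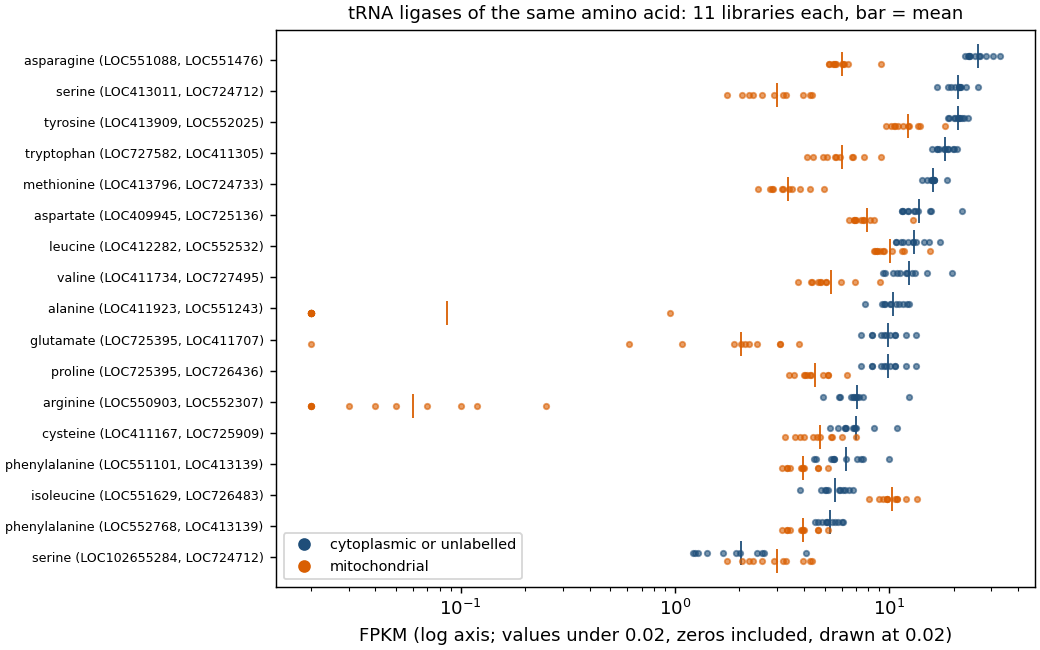
FPKM (log axis) of cytoplasmic or unlabelled (blue) and mitochondrial (orange) ligases of the same amino acid, where each point is 1 of 11 libraries and each bar the mean. Within each library the blue value is the higher in every pair except isoleucine and the second serine ligase. The plot does not link points of a library, and the points of some pairs, such as leucine, overlap across libraries. The mitochondrial alanine and arginine ligases sit at or near 0.

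Of the 95 members, 90 reached a mean of 1 FPKM over the 11 libraries and were tested. The 5 below it were LOC727164, LOC551243, LOC552307, LOC551173 (eIF4E type 2, 0.288 FPKM) and LOC551089 (a row described as IF-2, 0.286 FPKM). Differences between groups were fitted with limma on log2(FPKM + 1), with p-values adjusted by Benjamini and Hochberg over all 7830 genes tested, and a member was called at an adjusted p under 0.05. Counts of members at an unadjusted p under 0.05 are also given below. The share of all genes at that threshold was not drawn up, so these counts are not read as results. Against before exposure the log2 difference of the median gene was -0.18 at day 10, -0.11 at day 20 and 0.03 at day 30, and 0.02, 0.003 and 0.008 after median-of-ratios scaling. For this reason the median gene's value was subtracted from each log2 difference below, which is followed by the standard error (SE) of the fit, while p-values and calls test the values as deposited unless another scaling is named.

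At day 10 few members passed the test. Against before exposure 1 of 90 members was called higher and 1 lower, where 19.2% of all genes tested were called, 2.22% higher and 16.9% lower. The libraries of the groups did not overlap for 12 members on the higher side and 13 on the lower, against 9.74% and 38.3% of all genes. The members' median difference was 0.03 as deposited, or 0.21 relative to the median gene, and 72 of 90 lay above the median gene. Beside these values stood the larger share of gland transcripts and the lower sum of neuron markers at day 10 given above: 6 of 9 hypopharyngeal gland genes were called higher and 7 of 10 neuron markers, 1 of 2 glia markers, 2 of 15 muscle genes and 1 of 12 photoreceptor genes lower, with 1 of 4 haemocyte genes higher and 0 of 5 fat body genes called, and their part in the result was not tested.

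The one member called higher at day 10 was LOC725978, a row that carries the description of translation initiation factor IF-2, the bacterial-type factor that brings the first tRNA to the ribosome. A separate gene of the table, IF-2mt, holds the name of the mitochondrial form, and LOC725978 is known here by its description only. It read 2.11, 4.5 and 6.22 FPKM before exposure, 31.8 and 37.5 FPKM at day 10, 36.0, 4.89 and 8.55 FPKM at day 20 and 4.17, 6.88 and 5.51 FPKM at day 30. The high libraries were both of day 10 and 1 of day 20, and the day 10 libraries lay well above all of those before exposure. The mean was 4.28 ± 2.06 FPKM (SD, n = 3) before exposure and 34.7 ± 4.04 FPKM (SD, n = 2) at day 10, a rise of 3.01 ± 0.59 (SE) on the log2 scale (adjusted p = 0.00905). The call also held with median-of-ratios scaling (adjusted p = 0.0211) and was lost without day 10 replicate 2, with a log2 difference of 2.95 as deposited and an adjusted p of 0.123. IF-2mt itself read 3.00 to 5.74 FPKM before exposure and 3.06 and 3.87 FPKM at day 10, so its groups overlapped.

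The one member called lower was LOC727230, the eIF4E transporter, a protein that binds eIF4E, carries it into the nucleus and takes part in silencing mRNAs. It read 19.1, 19.9 and 16.8 FPKM before exposure, 11.7 and 13.5 FPKM at day 10, 12.9, 15.7 and 12.6 FPKM at day 20 and 19.5, 14.9 and 15.8 FPKM at day 30. Every library of days 10 and 20 lay below every library before exposure, and those of day 30 overlapped with them. At day 10 the difference was -0.35 ± 0.16 (SE) relative to the median gene and -0.53 as deposited (adjusted p = 0.0369). This call was lost with median-of-ratios scaling (-0.32, adjusted p = 0.142), quantile normalization (-0.32, adjusted p = 0.128) and the replicate block (-0.50, adjusted p = 0.0809). It was also lost without any 1 of the libraries before exposure (adjusted p between 0.0531 and 0.0958). The same held without day 20 replicate 1 or 3 or day 30 replicate 3 (0.0512 to 0.0538). Without day 10 replicate 2 the difference as deposited was -0.43, with 1 library left at day 10.

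Median-of-ratios scaling changed which members were called: 6 were higher and 0 lower at day 10 with limma, against 4% and 5.73% of all genes (9.73% in all), and the split over all genes moved from 174 higher and 1326 lower to 313 and 449. The 6 were LOC725978 and 5 initiation factors, namely LOC551901 (eIF4E-1A), LOC724532 (eIF1A), LOC552572 (eIF5A), LOC726500 (eIF2-alpha) and LOC551960 (eIF3 subunit K). With quantile normalization LOC724532 and LOC552572 were not called (limma, adjusted p = 0.0634 and 0.0567), and Eif3h (eIF3 subunit H) was (adjusted p = 0.0313). LOC551901, which binds the mRNA cap, read 13.7, 25.6 and 22.0 FPKM before exposure and 29.4 and 31.1 FPKM at day 10. Both day 10 libraries were above all before exposure, by 0.76 ± 0.23 relative to the median gene, with an adjusted p of 0.0898 as deposited and of 0.0294 after scaling. LOC724532, which acts with eIF1 in scanning for the start codon, read 38.2, 58.5 and 53.8 FPKM before exposure and 66.7 and 65.1 FPKM at day 10. Its groups did not overlap either, and its adjusted p was 0.201 as deposited and 0.041 after scaling.

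LOC552572 read 104, 135 and 121 FPKM before exposure and 161 and 140 FPKM at day 10, a difference of 0.51 ± 0.15 with an adjusted p of 0.146 as deposited and 0.0443 after scaling. LOC551960 read 19.1, 24.2 and 22.5 FPKM before exposure and 27.5 and 26.7 FPKM at day 10 (0.48 ± 0.15, adjusted p = 0.198 and 0.0401). For both genes the day 10 libraries were the higher ones without overlap. LOC726500, the subunit whose phosphorylation slows initiation, read 11.2, 14.7 and 12.7 FPKM before exposure and 16.4 and 14.2 FPKM at day 10, with overlap (0.42 ± 0.15, adjusted p = 0.297 and 0.0432). Before-exposure replicate 1 was the lowest library of the series for LOC551901, LOC724532, LOC552572, LOC551960 and LOC726500. Libraries were left out with the values as deposited only, not after median-of-ratios scaling. Without before-exposure replicate 1 the log2 differences as deposited went from 0.59 to 0.34 for LOC551901, from 0.41 to 0.23 for LOC724532 and from 0.24 to 0.15 for LOC726500. Those of LOC552572 and LOC551960 went from 0.33 to 0.23 and from 0.30 to 0.21. LOC726500 dropped to 0.14 without day 10 replicate 2 as well, and LOC551901 passed as deposited without before-exposure replicate 2 (0.77, adjusted p = 0.0409).

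**Figure D3:**
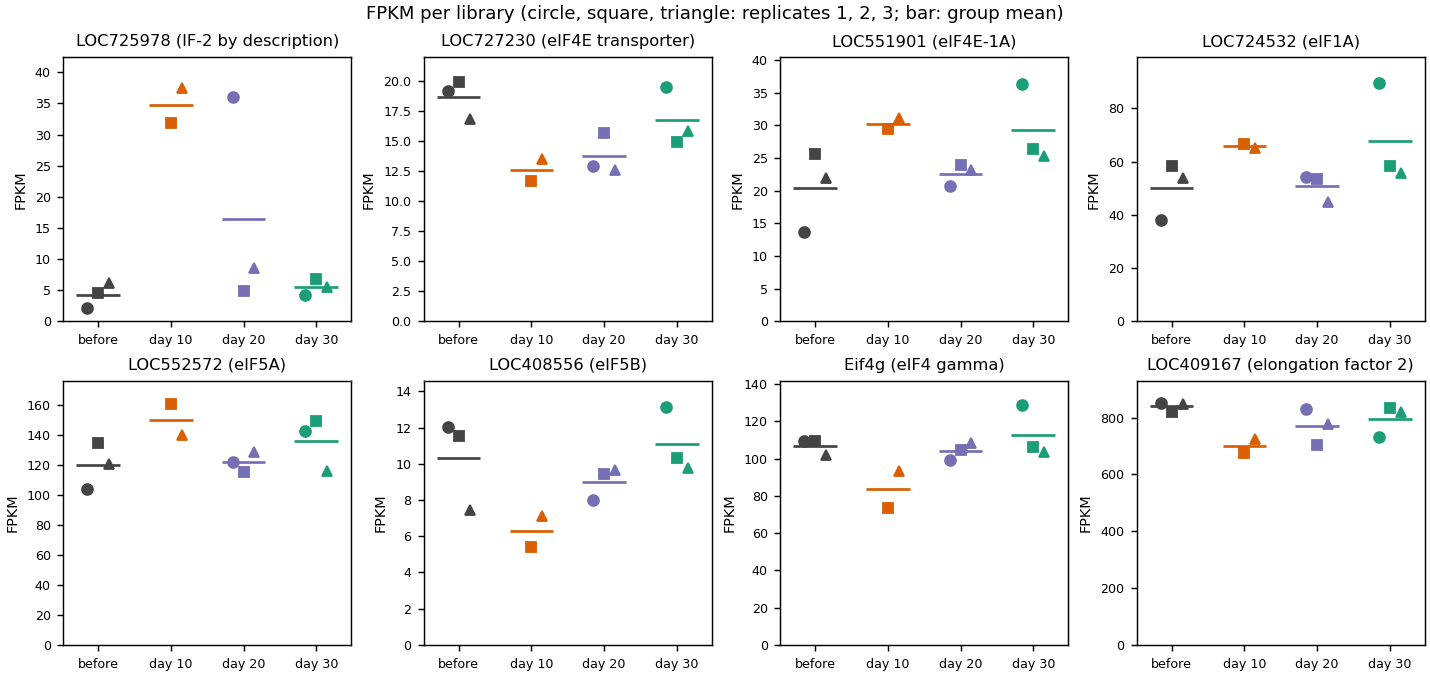
FPKM (linear axis from 0) of 8 members by sampling time, where circles, squares and triangles are replicates 1, 2 and 3 and bars are group means. LOC725978 is high in both day 10 libraries (31.8 and 37.5 FPKM) and in day 20 replicate 1 (36.0 FPKM), while elongation factor 2 lies between 676 and 852 FPKM throughout.

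Several large scaffold and joining factors had their lowest values at day 10 but did not pass the test. Eif4g, the scaffold that links the cap to the ribosome, read 110, 109 and 102 FPKM before exposure and 73.5 and 93.6 FPKM at day 10 (-0.18 ± 0.14, adjusted p = 0.0887). LOC411154 (eIF4G2) read 132, 138 and 133 FPKM before and 99.5 and 122.8 FPKM at day 10 (-0.10 ± 0.12, adjusted p = 0.126). LOC408556 (eIF5B, which joins the ribosomal subunits) read 12.1, 11.5 and 7.43 FPKM before and 5.40 and 7.13 FPKM at day 10 (-0.45 ± 0.22, adjusted p = 0.0621). All 3 genes were lower at day 10 without overlap, as were 38.3% of all genes tested. With median-of-ratios scaling the log2 differences of Eif4g, LOC411154 and LOC408556 were -0.14, -0.06 and -0.43 (limma, adjusted p = 0.435, 0.725 and 0.177). Without day 10 replicate 2 the log2 differences as deposited of Eif4g and LOC411154 went from -0.36 to -0.19 and from -0.28 to -0.13, and without day 10 replicate 3 they were -0.53 and -0.43 and passed (adjusted p = 0.0328 and 0.0413). LOC408556 passed without before-exposure replicate 3 (-0.82, adjusted p = 0.0283). The table holds a second eIF5B row, LOC100577551, so how reads were divided between the 2 rows is uncertain.

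The inhibitor LOC725039 (4E-BP1) read 51.8, 58.5 and 51.3 FPKM before exposure and 60.7 and 51.6 FPKM at day 10, with overlap (0.23 ± 0.12, adjusted p = 0.795). The eIF2-alpha kinases LOC727396 and LOC552472 overlapped between before exposure and each later day, with adjusted p-values of 0.846 and 0.651 at day 10. LOC408573 (eIF6, which keeps the ribosomal subunits apart) read 22.0 to 24.5 FPKM before and 21.1 and 22.7 FPKM at day 10, also with overlap. LOC100578660 (eIF2-beta) read 16.6, 22.7 and 14.8 FPKM before and 24.6 and 24.5 FPKM at day 10, higher without overlap (0.62 ± 0.25, adjusted p = 0.23).

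Elongation and release factors gave no call at day 10. LOC409167 (elongation factor 2) read 852, 819 and 849 FPKM before and 676 and 726 FPKM at day 10, lower without overlap (-0.08 ± 0.16, adjusted p = 0.293). The 2 elongation factor 1-alpha genes parted in direction: EF1a-F2 read 638, 639 and 709 FPKM before and 729 and 761 FPKM at day 10 (0.35 ± 0.20, adjusted p = 0.593), while Ef-1a-f1 read 285, 252 and 298 FPKM before and 203 and 241 FPKM at day 10 (-0.15 ± 0.17, adjusted p = 0.197). Neither gene overlapped between the groups and neither difference passed. LOC413943 (eRF3) read 31.8, 36.8 and 33.2 FPKM before and 26.4 and 29.3 FPKM at day 10 (-0.10 ± 0.12, adjusted p = 0.13), and its partner LOC725555 (eRF1) overlapped (0.20 ± 0.14, adjusted p = 0.933).

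None of the 22 cytoplasmic or unlabelled ligases and none of the 13 tested mitochondrial ligases was called at day 10 by limma, and at an unadjusted p under 0.05 there were 0 and 1. Their median differences relative to the median gene were 0.23 and 0.24, with 20 of 22 and 12 of 13 above the median gene. The threonine ligase LOC412200 read 40.7, 48.8 and 43.5 FPKM before exposure and 39.3 and 43.4 FPKM at day 10, with overlap. The arginine ligase LOC550903 read 4.94, 7.24 and 5.90 FPKM before and 6.99 and 7.53 FPKM at day 10, also with overlap. For 79 of the 90 members the 95% interval of the difference as deposited lay within 2-fold of FPKM + 1 in either direction, and for 47 it lay within 1.5-fold. The fold in FPKM itself is larger for low genes.

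**Figure D4:**
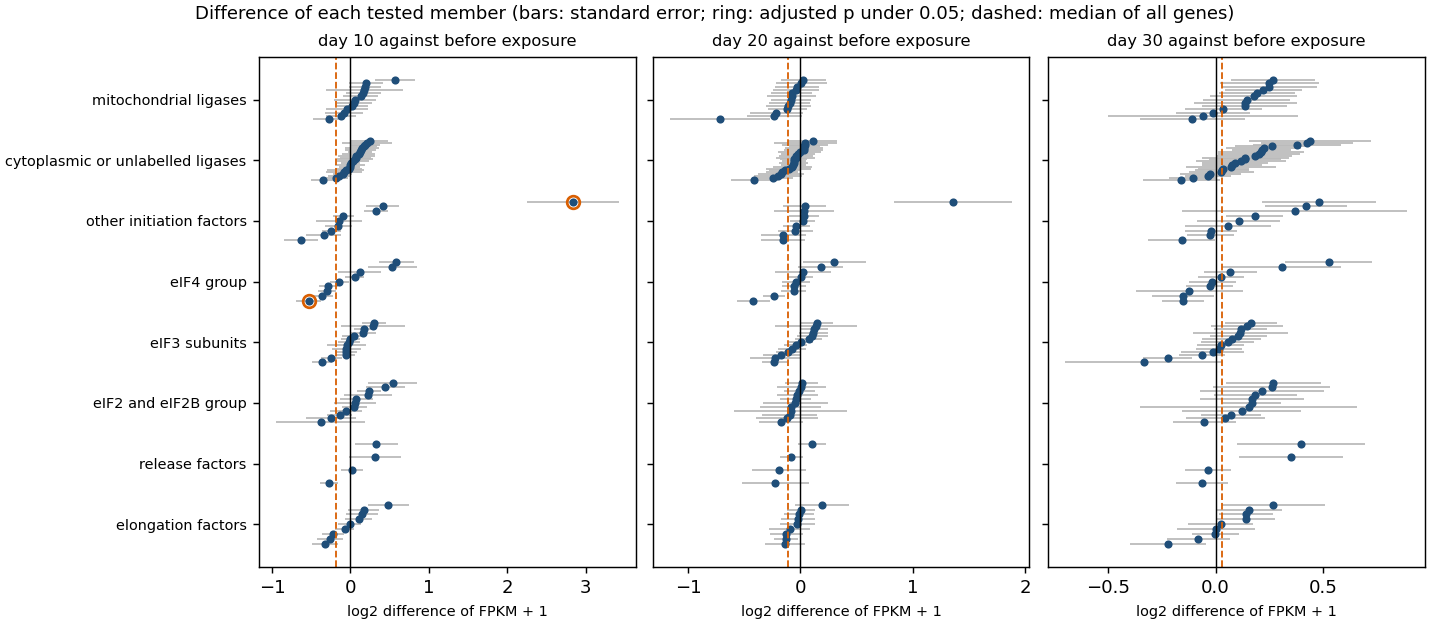
Log2 difference of FPKM + 1 as deposited for each of the 90 tested members against before exposure, by role, with standard errors as bars, a dashed line at the median of all genes and a ring around members with an adjusted p under 0.05 (horizontal scales differ between panels). Only day 10 holds rings, for LOC725978 (higher) and LOC727230 (lower), and the ring on LOC727230 is absent under median-of-ratios scaling.

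At day 20 none of the 90 members was called against before exposure with limma, where 0% of all genes were called, and 1 higher and 2 lower members had an unadjusted p under 0.05. The libraries did not overlap for 0 members on the higher side and 4 on the lower, against 1.63% and 18.9% of all genes. The smallest p belonged to LOC727230, the eIF4E transporter, whose 12.9, 15.7 and 12.6 FPKM all lay under the values before exposure (-0.31 ± 0.14, adjusted p = 0.421). LOC409396 (Mextli) read 70.4, 74.7 and 80.1 FPKM before and 65.1, 60.1 and 65.6 FPKM at day 20 (-0.12 ± 0.10, adjusted p = 0.455). LOC409550 (eIF3 subunit D, which can itself bind caps in human cells) read 56.0, 58.3 and 57.8 FPKM before and 48.6, 46.4 and 51.3 FPKM at day 20 (-0.12 ± 0.11, adjusted p = 0.539). These 3 genes were lower without overlap at day 10 too, as were 38.3% of all genes tested. There LOC409396 and LOC409550 had adjusted p-values of 0.0774 and 0.0667 as deposited. The days share the libraries before exposure.

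On the higher side LOC725978 led at day 20 (1.47 ± 0.52, adjusted p = 0.449), but the value came from replicate 1. Without that library the log2 difference as deposited dropped from 1.36 to 0.59. Day 20 replicate 1 had the lowest share of royal jelly transcripts of its day, 13.2%, and the highest photoreceptor sum of the series, 1986 FPKM. Photoreceptor sums were 793 and 693 FPKM in the day 10 libraries and 1284 to 1301 FPKM at day 30. The part of gland or photoreceptor transcripts in the LOC725978 values was not tested. The next in order of p were LOC409379 (eIF4H, a helicase cofactor, 0.41 ± 0.28) and LOC409796 (eIF3 subunit J, 0.23 ± 0.12), with adjusted p-values of 0.76 and 0.784. On the scale of FPKM + 1 the 95% interval lay within 2-fold for 87 members at day 20 and within 1.5-fold for 65.

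At day 30, too, none of the 90 members was called against before exposure with limma (0% of all genes), and 2 higher and 0 lower members had an unadjusted p under 0.05. Libraries did not overlap for 0 members on the higher side and 1 on the lower, against 3.37% and 7.02% of all genes, and that member was LOC409396 (Mextli), at 67.7, 67.0 and 67.1 FPKM (-0.18 ± 0.10, adjusted p = 0.759). The higher members with the smallest p were LOC551901 (eIF4E-1A), at 36.3, 26.3 and 25.2 FPKM (0.50 ± 0.20, adjusted p = 0.567), LOC724532 (eIF1A), at 89.3, 58.5 and 55.8 FPKM (0.39 ± 0.19, adjusted p = 0.693), and LOC550903 (arginine ligase), at 12.4, 6.85 and 6.77 FPKM (0.40 ± 0.21, adjusted p = 0.709). In each of these 3 genes replicate 1 stood above the other two and the group overlapped with the libraries before exposure. Without that library the log2 differences as deposited went from 0.53 to 0.37, from 0.42 to 0.21 and from 0.42 to 0.17.

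LOC409550 (eIF3 subunit D, 46.0, 44.8 and 57.1 FPKM) and EF1a-F2 (455, 709 and 563 FPKM) completed the lower side at day 30, with differences of -0.25 ± 0.11 and -0.25 ± 0.18 and adjusted p-values of 0.71 and 0.785. Both overlapped with the libraries before exposure. The interval lay within 2-fold for 83 members and within 1.5-fold for 55.

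Between the exposed days 20 and 10 none of the 90 members was called with limma, where 0.102% of all genes were, and 2 higher and 1 lower members had an unadjusted p under 0.05. Libraries did not overlap for 10 members on the higher side and 22 on the lower, against 28.5% and 16.8% of all genes. Eif4g read 99.0, 105 and 108 FPKM at day 20, above both day 10 libraries (0.23 ± 0.14, adjusted p = 0.213), and so did LOC408386 (eIF3 subunit G) at 66.6, 62.3 and 65.8 FPKM against 50.8 and 53.0 FPKM (0.23 ± 0.13, adjusted p = 0.208). Without day 10 replicate 2 the log2 difference as deposited of Eif4g went from 0.32 to 0.15, and without day 10 replicate 3 to 0.49. On the lower side stood LOC725978 (-1.57 ± 0.59, adjusted p = 0.185), whose days overlapped through day 20 replicate 1, and the mitochondrial serine ligase LOC724712, at 2.05, 3.29 and 2.21 FPKM against 4.29 and 3.95 FPKM without overlap (-0.65 ± 0.26, adjusted p = 0.243).

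From day 10 to day 30, 1 of 90 members was called higher and 1 lower, where 10.8% of all genes were called, 9.41% higher and 1.37% lower. Libraries did not overlap for 18 members on the higher side and 5 on the lower, against 37.6% and 5.68% of all genes. LOC408556 (eIF5B) rose from 5.40 and 7.13 FPKM to 13.1, 10.3 and 9.78 FPKM (0.52 ± 0.22, adjusted p = 0.0489). LOC725978 fell from 31.8 and 37.5 FPKM to 4.17, 6.88 and 5.51 FPKM (-2.68 ± 0.59, adjusted p = 0.0315). Neither call held with median-of-ratios scaling, under which 0 members and 0.766% of all genes were called (adjusted p = 0.185 and 0.0575), and neither held without day 10 replicate 2 (0.478 and 0.36) or without day 30 replicate 1 (0.126 and 0.0873) or 3 (0.11 and 0.105). The call on LOC408556 was also lost without the filter on low values (0.0698), without the mean-variance trend (0.0597), with quantile normalization (0.12), with the replicate block (0.107) and without before-exposure replicate 2, any library of day 20 or day 30 replicate 2 (0.051 to 0.0714). That on LOC725978 was also lost with the replicate block (0.0518) and without day 10 replicate 3 (0.0659). These differences share the day 10 libraries with those against before exposure.

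Between days 30 and 20 none of the 90 members was called with limma (0% of all genes), and 2 higher and 0 lower members had an unadjusted p under 0.05. Libraries did not overlap for 13 members on the higher side and 0 on the lower, against 13.4% and 1.42% of all genes. The beta subunit of the phenylalanine ligase, LOC551101, read 10.0, 5.54 and 6.30 FPKM at day 30 and 4.58, 5.37 and 4.45 FPKM at day 20, higher without overlap (0.34 ± 0.21, adjusted p = 0.651). LOC724133 (release factor 1) read 5.84, 2.66 and 3.69 FPKM at day 30 and 2.61, 2.70 and 1.86 FPKM at day 20, with overlap (0.40 ± 0.24, adjusted p = 0.651). Without day 30 replicate 1 the log2 differences as deposited of these 2 genes went from 0.48 to 0.26 and from 0.54 to 0.30. On the lower side LOC725978 and LOC725555 (eRF1) had adjusted p-values of 0.651 and 0.661, and both overlapped.

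Single libraries stood apart across many members. Day 30 replicate 1 held the highest value of 49 of the 90 tested members, or 54.4%, against 38.95% of all genes tested. By role, it held the highest value of 11 of 13 mitochondrial ligases, 16 of 22 cytoplasmic or unlabelled ligases, 5 of 11 members of the eIF2 and eIF2B group, 4 of 13 eIF3 subunits, 3 of 9 members of the eIF4 group, 4 of 9 other initiation factors, 4 of 9 elongation factors and 2 of 4 release factors. The difference between roles was not tested. Relative to the median gene of each library, the median of the mitochondrial ligases was 0.28 in day 30 replicate 1, 0.20 and 0.25 at day 10 and -0.21 in before-exposure replicate 3, with the other 7 libraries between -0.11 and 0.04. The same library held the lowest value of the series for EF1a-F2, LOC725555 (eRF1), LOC414004 (eIF3 subunit A) and LOC413909 (tyrosine ligase).

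Before-exposure replicate 1 held the lowest value of 28 members, or 31.1%, against 17.5% of all genes, and day 10 replicate 2 held the lowest of 16, or 17.8%, against 39.8% of all genes. Day 30 replicate 1 had the lowest share of royal jelly transcripts of the series, 1.51%, and before-exposure replicate 1 had 1.76%. The next lowest shares were 2.39% in before-exposure replicate 3 and 3.16% in day 30 replicate 3. Those libraries held the highest value of 5 and 2 members and the lowest of 8 and 1. The part of royal jelly transcripts in these patterns was not tested.

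**Figure D5:**
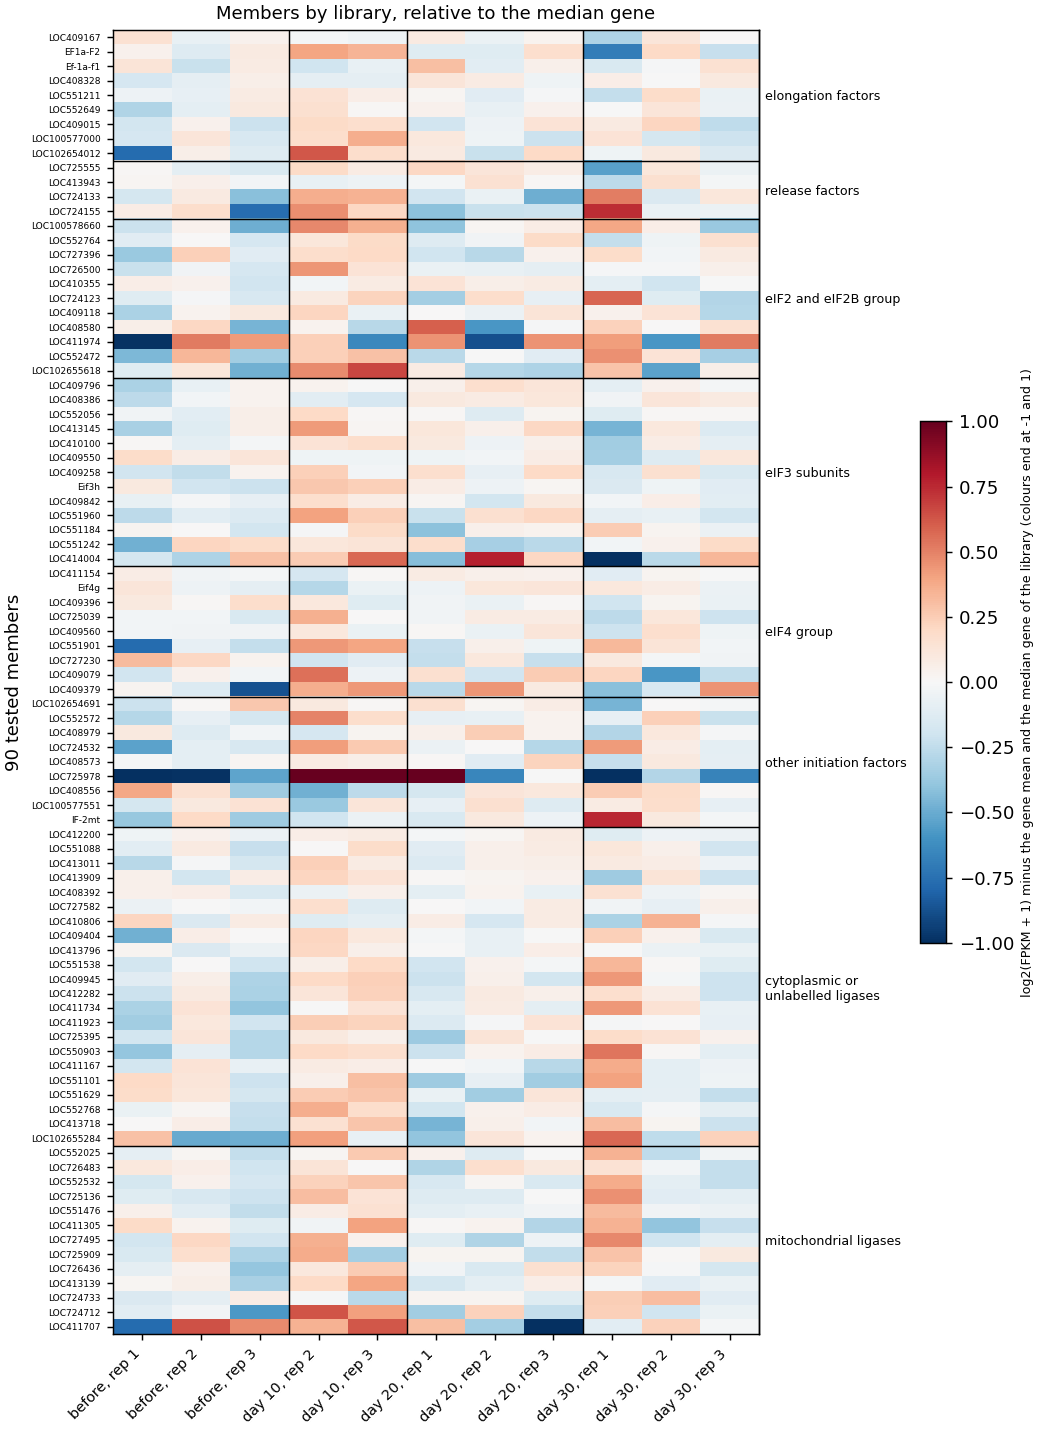
Log2(FPKM + 1) of the 90 tested members by library, each minus the mean of the gene and the median gene of the library, in rows grouped by role (red higher, blue lower, colours end at -1 and 1). Day 30 replicate 1 is red over most ligases and blue over several eIF3 and elongation factor rows, and LOC725978 is the row with the deepest red at day 10 and in day 20 replicate 1.

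The median SD between libraries of a group was 0.20 on the log2 scale for the 90 members, 0.22 for all 7830 genes tested and 0.21 for 5832 genes of a similar level. The steadiest roles were the eIF4 group (0.14) and eIF3 (0.14), and the most variable was the eIF2 and eIF2B group (0.32). LOC409396 (Mextli) had the lowest SD of the members, 0.07, with eIF4B (LOC409560), elongation factor 2 (LOC409167) and eRF3 (LOC413943) at 0.09. The highest were LOC725978 at 0.82, LOC411974 (eIF2B-gamma) at 0.78 and the mitochondrial glutamate ligase LOC411707 at 0.67. LOC411974 read 1.67, 7.53 and 6.68 FPKM before exposure and 7.40, 2.54 and 7.12 FPKM at day 30, so high and low libraries stood within one group.

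Neighbouring parts of the translation system were followed in lists chosen by description. The synthetase complex and tRNA modification list includes LOC409404, the ligase-complex protein that is also a member of the group. None of 7 other elongation, release and recycling factors, 29 synthetase complex and tRNA modification genes, 67 cytosolic ribosomal proteins and 71 mitochondrial ribosomal proteins was called in any of the 6 comparisons with limma, where 19.2% of all genes were called at day 10 against before exposure and 10.8% from day 10 to day 30. With median-of-ratios scaling 2 of 67 cytosolic and 6 of 71 mitochondrial ribosomal proteins were called higher at day 10, against 4% of all genes. Their medians at day 10 lay at 0.33 and 0.37 relative to the median gene, beside 0.21 for the members. The smallest p-values of these lists at day 10 belonged to the mitochondrial factors LOC408352 (elongation factor Ts, -0.06 ± 0.12) and LOC411482 (ribosome-recycling factor, 0.59 ± 0.24), to LOC100576866 (elongator complex protein 3, -0.63 ± 0.33) and LOC552626 (a tRNA methyltransferase, 0.81 ± 0.29), and to the ribosomal proteins LOC550715 (L12, 0.65 ± 0.16), LOC552318 (L27a, 0.75 ± 0.19), LOC413989 (mitochondrial L46, 0.67 ± 0.18) and LOC726480 (mitochondrial L54, 0.51 ± 0.13), with adjusted p-values from 0.054 to 0.261.

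In the list of amino acid and stress signalling to translation, which holds both eIF2-alpha kinases of the group, 5 of 19 tested genes were called lower at day 10 (16.9% of all genes were) and 0 higher, and 4 of the 5 stayed lower with median-of-ratios scaling. LOC411048, a sestrin, which restrains TOR when leucine is scarce, read 49.6, 44.0 and 43.6 FPKM before exposure and 23.1 and 29.8 FPKM at day 10 (-0.60 ± 0.13, adjusted p = 0.00594). LOC411481 (ribosomal protein S6 kinase alpha-2) read 26.7, 29.2 and 28.6 FPKM before and 14.2 and 18.5 FPKM at day 10 (-0.58 ± 0.14, adjusted p = 0.00631). LOC411630 (ribosomal protein S6 kinase alpha-5) read 27.2, 26.4 and 27.95 FPKM before and 12.5 and 19.2 FPKM at day 10 (-0.59 ± 0.16, adjusted p = 0.00855). Alpha-2 and alpha-5 belong to kinases known to act behind MAP kinases, and the beta-type S6 kinases that TOR drives were not called. In these 3 genes both day 10 libraries were under all of those before exposure, and from day 10 to day 30 all 3 rose again (0.32, 0.31 and 0.60, adjusted p = 0.0341, 0.0377 and 0.0254), calls that median-of-ratios scaling did not keep. Both comparisons use the same day 10 libraries.

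LOC410345 (WDR59, of the GATOR complex that relays amino acid supply to TOR) read 2.81, 6.03 and 5.23 FPKM before and 0.81 and 1.47 FPKM at day 10 (-1.20 ± 0.36, adjusted p = 0.0218). LOC413223 (rictor, a subunit of TOR complex 2) read 18.0, 14.2 and 15.3 FPKM before and 9.02 and 10.2 FPKM at day 10 (-0.49 ± 0.17, adjusted p = 0.0196, and 0.0959 with median-of-ratios scaling). The gland and neuron marker values given for day 10 stand beside these 5 genes as well, and their part was not tested. Results with single libraries left out were drawn up for members only. How far the calls on these 5 genes rest on a single library is therefore not known here.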

How the data were processed

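The deposited values are FPKM per gene and library, per the file headers. Tools named by the submitters' processing notes are StringTie, HISAT2 2.1.0 and fastp 0.18.0. Genome build, annotation and use of strand: not given in the sources used here, so no coordinates are printed and overlapping genes may share reads. FPKM are relative to the mapped fragments of a library, so genes that take a large share of it lower the values of all others.

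The table has 12 FPKM columns. The 1 not used has a header of the day 10 form that matches no labelled sample analysed here, so day 10 rests on 2 libraries. FPKM hold no read counts and the depth is unknown, so no counting error is given and precision rests on the spread between libraries. Steps among low values gave only relative depths, from 1.0 (before-exposure replicate 2) to 1.6 (day 20 replicate 3), on weak grounds: 4.52% of pairs of values fell on a shared step against 2.77% at other offsets, too few to recover whole reads. No pair of libraries shared more than 1.35% of its nonzero values.

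All 95 members matched RefSeq symbols (Amel_HAv3.1, names only). limma 3.58.1 in R 4.3.3, with a mean-variance trend, was fitted to log2(FPKM + 1) of the 7830 genes averaging 1 FPKM or more over all 11 libraries, as 4 group means with 7 residual degrees of freedom. This scale understates changes of low genes. The script was tested on simulated data with independent noise for each gene and no shift of whole libraries. That test therefore does not bear on how such shifts affect the calls.

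Members, roles, lists and comparisons were chosen with earlier results of these data known. Named genes are those called in a comparison or, with none, those of smallest p in each direction (3 against before exposure, 2 between exposed days), the highest and lowest levels of each role, the core factors by name, ligase pairs and up to 4 genes per neighbouring list. Genes named outside these rules, such as LOC413223, LOC411974, LOC414004, LOC551960, LOC551242, LOC410355, LOC100577551, Eif3h and IF-2mt, were chosen after their values were seen. The alternatives were a pseudocount of 0.1, no filter, median-of-ratios scaling, quantile normalization, no trend, the replicate number as a block and leaving out each library.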

Additional observations from a re-analysis of the deposited data

How the results depend on the processing

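The 0 members called at day 20 and day 30 against before exposure, between days 20 and 10 and between days 30 and 20 stayed at 0 under every alternative run. At day 10 against before exposure, 2 members were called, as also with a pseudocount of 0.1, without the filter and without the mean-variance trend. Median-of-ratios scaling gave 6 and quantile normalization 5, all higher, and leaving out 1 library gave between 0 (without day 10 replicate 2) and 4 (without day 10 replicate 3). From day 10 to day 30, 2 were called, 1 without the filter, 1 without the trend, 1 with quantile normalization and 0 with median-of-ratios scaling, and leaving out 1 library gave between 0 (without day 10 replicate 2, day 30 replicate 1 or day 30 replicate 3) and 3 (without before-exposure replicate 1). Leaving out before-exposure replicate 2, or day 20 replicate 1, 2 or 3, or day 30 replicate 2, gave 1 in that comparison. At day 10 it was 1 without day 20 replicate 1, day 20 replicate 3 or day 30 replicate 3, and 3 without day 30 replicate 1. Where a day 10 library was left out, the lone one was assumed to vary like the other groups. No log2 difference that was called changed sign. The cause of these shifts was not tested.

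Replicate numbers are shared across days, but the labels do not say that they mark a colony or batch. Over 15 pairs of same-numbered libraries the correlation of deviations ran from -0.24 to 0.31, with 3 above 0.1. Over 30 other pairs it ran from -0.31 to 0.24, with 10 above 0.1. With 2 libraries at day 10 their deviations are mirror images, so correlations with them say little about pairing. The numbers were not taken as pairing. With the replicate number as a block 1 member was called at day 10 against before exposure (LOC725978) and 0 from day 10 to day 30, and the other comparisons stayed at 0.

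The number of libraries limits the precision: the median half-width of the 95% interval was 0.42 on the log2 scale for comparisons with day 10 and 0.38 for the others. These intervals are not adjusted for the number of genes tested. Even so, changes under about that size could not be told from 0 for a typical member, and a call took a larger change.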
